A study of Mus musculus with 32 samples.

Results

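The Fc receptors described here are 6 genes of the mouse, Fcgr1, Fcgr2b, Fcgr3, Fcgr4, Fcer1g and Fcgrt, out of 24411 genes in the count table of the CD11c-DTR recipients and 24421 in that of the CX3CR1-DTR recipients. They were listed by symbol. RNA was read by MARS-seq, a method that barcodes small sorted populations and sequences the 3′ ends of transcripts. The monocyte graft (n = 3) was sorted from mice whose labels give blood, the genotype Itgax-DTR and a CD11b+ CD115+ gate, whereas the study's methods describe bone marrow monocytes of Cx3cr1 GFP/+ CD45.1 donors gated as CD117- CD11b+ CD115+ Ly6C+. Graft-derived macrophages came from colon and ileum 4, 8 and 12 days after intravenous transfer (n = 3, 4 and 4 for colon, 1 of which was left out at day 8, and n = 4 on each day for ileum). For them the labels give a CD11b+ CD64+ Ly6C- MHCII+ gate, whereas the study describes a sort by CD45.1 and CX3CR1-GFP, with CD64 seen on the sorted cells. The hosts were C57BL/6J mice that carried bone marrow of the Itgax-DTR/GFP transgenic line (CD11c-DTR), in which the CD11c promoter drives the diphtheria toxin receptor, so that toxin given before and after the transfer removed the resident macrophages. A further 6 colon libraries came from cells transferred into hosts with CX3CR1-DTR bone marrow, which the study's methods place at day 14. The study's list of data sets counts fewer of these libraries and the sources used here do not say which, so all 6 were used. All hosts were therefore irradiated, engrafted and toxin treated, and the graft was the only group that had not passed through a host. The labels name no animal for any library, so p-values measure the spread between these libraries, which may be partly technical.

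Fc receptors bind the constant part of antibodies and tell a cell that a particle is coated. FcγRI (Fcgr1, CD64), FcγRIII (Fcgr3, CD16) and FcγRIV (Fcgr4) activate the cell through the common γ chain (Fcer1g), whose ITAM motif recruits the kinase Syk, and they drive phagocytosis of immune complexes. FcγRIIB (Fcgr2b, CD32) carries an ITIM motif, recruits the phosphatase SHIP-1 and restrains these signals. FcRn (Fcgrt) pairs with β2-microglobulin and returns swallowed IgG and albumin from endosomes to the surface, in macrophages as well as in endothelium and epithelium. Classical monocytes and gut macrophages bear most of these receptors, and CD64 is the usual surface marker of gut macrophages.

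In mm9, 4 of the genes lie on chromosome 1. Fcgr2b spans chr1:172890689-172906202 on the minus strand, Fcgr4 chr1:172949057-172959892 on the plus strand, Fcgr3 chr1:172981300-172989534 on the minus strand and Fcer1g chr1:173159703-173164480 on the minus strand. Fcgr1 is at chr3:96086832-96097892 and Fcgrt at chr7:52348363-52359192, both on the minus strand. No other gene shared exons with them on the same strand. Transcripts of Fcgr2b and Fcgr3 share a run of 129 bases, but within the last 500 bases, where a 3′ method reads, their longest shared run was 9 bases.

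The 100 bases before the start of each gene are shown because myeloid genes commonly carry purine-rich boxes of the factor PU.1 there. Sequences are from RefSeq (GRCm38.p6), 5′ to 3′ on the gene's strand, and capitals mark the box GAGGAA or its complement TTCCTC, searched on both strands. All 6 genes had a promoter entry.
Fcgr1 (chr3:96293970-96294069, -): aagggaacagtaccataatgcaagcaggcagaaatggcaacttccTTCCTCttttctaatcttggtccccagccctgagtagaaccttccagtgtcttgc
Fcgr3 (chr1:171059404-171059503, -): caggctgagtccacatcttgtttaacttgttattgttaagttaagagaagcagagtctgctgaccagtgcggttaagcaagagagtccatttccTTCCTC
Fcgr4 (chr1:171018826-171018925, +): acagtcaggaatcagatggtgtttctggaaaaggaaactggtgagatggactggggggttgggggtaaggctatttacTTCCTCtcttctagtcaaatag
Fcgr2b (chr1:170976072-170976171, -): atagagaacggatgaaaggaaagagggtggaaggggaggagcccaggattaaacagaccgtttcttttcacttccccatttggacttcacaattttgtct
Fcer1g (chr1:171234350-171234449, -): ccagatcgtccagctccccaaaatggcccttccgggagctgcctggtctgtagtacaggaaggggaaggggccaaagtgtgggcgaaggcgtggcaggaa
Fcgrt (chr7:45103823-45103922, -): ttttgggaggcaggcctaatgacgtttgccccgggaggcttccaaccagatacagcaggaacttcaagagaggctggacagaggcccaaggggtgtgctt
The 3 activating receptors held 1 box each, and these letters were not in the windows of the other 3 genes. The box was in 9.76% of 27025 promoter windows of the same length. A match is a description of letters, not a bound site. Other purine-rich runs were not searched, and no link between the box and expression was tested.

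Libraries held 591817 to 5228664 reads on genes in the CD11c-DTR experiment (25 libraries, median 2447862) and 1223772 to 4218027 in the CX3CR1-DTR experiment. Levels are given as normalized reads, that is, reads per 10000000 mapped reads of the library, and the floor of 3 reads stood for 3.51 to 27.6 normalized reads. Colon day 8 replicate 1 was not among the libraries the study used, and for that reason it was left out of means and tests. Its values, which stood apart, are given beside the results it touches. Markers of other cells moved with the groups. Summed reads of 6 pan-leukocyte genes (Ptprc, Itgb2, Coro1a, Laptm5, Cd52 and Cd53) were 57409 to 69090 normalized reads in the graft, 1167 to 5122 in the 10 colon libraries and 3160 to 25714 in the 12 ileum libraries. Summed reads of 10 epithelial genes were 34.9 to 67.4 in the graft, 110816 to 168127 in colon and 19507 to 127432 in ileum, with none of the 10 at 0 in the engrafted libraries and Krt20 and Vil1 at 0 in every graft library. Macrophage markers (9 genes, among them Csf1r, Cd68 and C1qa) summed to 9036 to 11579 in the graft, 4151 to 24357 in colon and 10736 to 109869 in ileum. By group the colon thus held the fewest reads of the 6 pan-leukocyte genes and the most of the 10 epithelial genes. Its macrophage markers did not follow the pan-leukocyte genes. Their group medians were 10448, 9598 and 10285 in colon at days 4, 8 and 12 against 9535 in the graft. The part of these marker differences in the results was not tested. Neutrophils, mast cells and NK cells also bear some of these receptors. Their marker lists of 6 genes each summed to 5791 to 8592, 0 to 2.42 and 8.42 to 29.1 normalized reads in the graft, 149 to 1207, 110 to 210.2 and 0 to 23.7 in colon, and 368 to 1293, 46.1 to 182 and 9.22 to 614 in ileum. The mast cell genes Cpa3 and Mcpt4 were at 0 in every engrafted library. Comparisons per library are therefore given together with those per pan-leukocyte read. In such bulk samples fewer receptor-bearing cells and less receptor RNA per cell cannot be told apart.

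**Figure D1:**
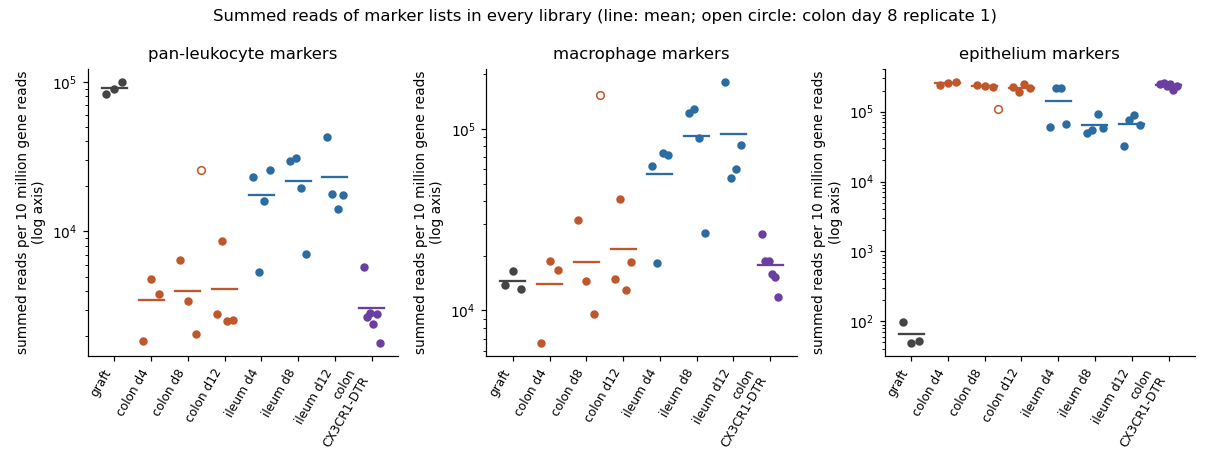
Summed reads per 10000000 reads on genes (log axis) of pan-leukocyte, macrophage and epithelial marker genes, with 1 point per library, a line at the group mean and colon day 8 replicate 1 as an open circle. The graft is highest in pan-leukocyte and lowest in epithelial reads, the colon libraries are low in leukocyte and high in epithelial reads, and the ileum lies between them with a wide spread.

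The first question was how the receptors differed between the grafted monocytes and the macrophages that arose from them. In the colon 4 of the 6 genes were lower per library than in the graft on every day (Fcgr1, Fcgr3, Fcgr2b and Fcer1g), while Fcgr4 and Fcgrt did not pass the test, and per pan-leukocyte read the values of all 4 lay above the graft. That scaling raised nearly all genes, however, with 95.7%, 95% and 96.2% of those tested higher and 0.355%, 0.583% and 0.659% lower at days 4, 8 and 12, and the values of these 4 members (0.67 to 2.46) lay below the median of all genes (4.87 to 4.97). At days 4, 8 and 12, 24.5%, 23.9% and 24.9% of the 11842 genes tested were lower, 35.9%, 35.2% and 37.7% were higher, and 60.4%, 59.1% and 62.6% were called in either direction, so a change as such was common. In the ileum Fcgr2b was lower per library on each day and Fcgr4 was higher. Genes called in the ileum made up 56.7%, 53.9% and 55.9% of those tested, with 20.5%, 19.5% and 20% lower and 36.2%, 34.3% and 35.9% higher. Per pan-leukocyte read 88.2%, 78.3% and 76.2% of genes were higher in ileum and 0.709%, 0.937% and 0.929% lower, with medians of 3.02, 2.42 and 2.32. Calls are an adjusted p under 0.05 in edgeR's quasi-likelihood test with Benjamini-Hochberg adjustment over all genes, and fold changes are on the log2 scale ± standard error. The median edgeR fold change of all genes from the graft, under TMM scaling, was 0.20 to 0.24. Fold changes of the members relative to it are lower by that amount. The dates in the labels mark 3 transfer experiments. Within each, the log2 ratio of mean normalized reads in colon at day 12 to the graft was below 0 for Fcgr1, Fcgr3, Fcgr2b and Fcer1g, from -1.80 to -3.95. Such ratios are per mapped read without TMM, so they are not parts of the edgeR fold changes.

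Among the activating receptors, Fcgr3 had 4267, 5009 and 3524 normalized reads in the 3 graft libraries. It had 258, 495 and 358 in colon at day 4, 1081, 488 and 415 at day 8, and 463, 1666, 422 and 604 at day 12. In ileum it had 1799, 758, 1005 and 2446 at day 4, 2543, 2697, 1904 and 428 at day 8, and 4483, 1349, 1849 and 3000.2 at day 12. All colon libraries lay below all graft libraries, whereas the highest ileum library at day 12 lay among the graft. Fcgr3 was lower than in the graft by -3.16 ± 0.62 (adjusted p = 0.00013), -2.45 ± 0.60 (adjusted p = 0.0013) and -2.09 ± 0.54 (adjusted p = 0.0017) in colon at days 4, 8 and 12. It did not pass the test in ileum, where its values were -1.09 ± 0.53, -0.70 ± 0.53 and -0.15 ± 0.53 (adjusted p = 0.084, 0.28 and 0.83). Scaled to pan-leukocyte reads it was higher than in the graft in colon, by 1.42 to 2.23, and in ileum by 1.35 at day 4 and 1.71 at day 12, with 1.17 and no call at day 8. Relative to the summed pan-leukocyte reads it amounted to 6.82% ± 1.51 (SD, n = 3) in the graft, 32.1% ± 7.41 (n = 4) in colon and 22.3% ± 9.35 (n = 4) in ileum at day 12.

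Fcgr1 encodes CD64, which is in the labelled gate of the macrophages and not in the graft's, while the study's description of the sort does not select on it, and the part of the sort in the Fcgr1 difference was not tested. It had 679, 866 and 695 normalized reads in the graft. In colon it had 48.4, 154 and 159 at day 4, 229.6, 154 and 50.3 at day 8, and 149.9, 286, 102 and 80.8 at day 12, all below the graft. In ileum it had 578, 177, 212 and 571 at day 4, 689, 914, 469 and 133 at day 8, and 908, 229, 325 and 513 at day 12, values that spread across the range of the graft from day 8. Per library Fcgr1 differed from the graft by -2.29 ± 0.65, -2.18 ± 0.64 and -1.97 ± 0.57 in colon (adjusted p = 0.0039, 0.0056 and 0.0048) and by -0.54 ± 0.57, 0.029 ± 0.56 and -0.071 ± 0.56 in ileum (adjusted p = 0.44, 0.97 and 0.93). Per pan-leukocyte read it was higher in both segments on each day, by 2.19 to 2.46 in colon and 1.74 to 1.89 in ileum.

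Fcgr4, the receptor of mouse IgG2a and IgG2b, was higher in ileum than in the graft under both scalings. The graft libraries held 98.2, 169 and 65.4 normalized reads. The ileum libraries held 469, 66.2, 276 and 364 at day 4, 797, 809, 505 and 133 at day 8, and 1064, 519, 538 and 943 at day 12, when the lowest ileum library was above the highest of the graft. In colon it had 21.5, 71.2 and 42.7 at day 4, 196, 80.9 and 36.3 at day 8, and 218, 265, 78 and 97.3 at day 12, and the groups overlapped. Fcgr4 was higher in ileum by 1.82 ± 0.64 (adjusted p = 0.019), 2.81 ± 0.65 (adjusted p = 0.00085) and 3.30 ± 0.66 (adjusted p = 0.00018) at days 4, 8 and 12, in 3 of 4, 4 of 4 and 4 of 4 libraries against the graft mean. In colon the values were -0.99 ± 0.71, 0.073 ± 0.68 and 0.84 ± 0.62 (adjusted p = 0.24, 0.94 and 0.24). Per pan-leukocyte read Fcgr4 was higher in every engrafted group, by 3.52, 4.37 and 5.32 in colon and 4.08, 4.66 and 5.23 in ileum. Relative to the summed pan-leukocyte reads it was 0.177% ± 0.0862 in the graft, 7.19% ± 2.82 in colon and 6.76% ± 2.97 in ileum at day 12. The day 4 call in ileum was lost without graft replicate 1 (1.69, adjusted p = 0.064), without graft replicate 3 (1.56, adjusted p = 0.084) or without ileum day 4 replicate 1 (1.41, adjusted p = 0.082). Within the 3 transfer experiments, the ratio of mean normalized reads in ileum at day 12 to the graft was 2.99, 3.03 and 2.48 on the log2 scale.

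Fcgr2b, the inhibitory receptor, was lower per library in both segments on each day. The graft held 895, 1205 and 615 normalized reads, against 35.8, 62.3 and 52.9 in colon at day 4, 118, 67.8 and 74.9 at day 8, and 111, 189.9, 63.3 and 92.4 at day 12. The ileum held 129, 85.4, 36.9 and 99.9 at day 4, 108, 182, 124 and 71.4 at day 8, and 235, 82.7, 182 and 407 at day 12. None of the engrafted libraries tested reached the lowest graft library. Fcgr2b was lower by -3.83 ± 0.50, -3.14 ± 0.48 and -2.68 ± 0.42 in colon (adjusted p = 8.1e-07, 6.5e-06 and 8.2e-06) and by -2.88 ± 0.44, -2.38 ± 0.42 and -1.44 ± 0.40 in ileum (adjusted p = 8.5e-06, 5.3e-05 and 0.0042). Per pan-leukocyte read it was higher in colon at day 12 (1.81 ± 0.68, adjusted p = 0.012), and it did not pass the test at the other points, with 0.78 and 1.43 in colon at days 4 and 8 and -0.20, -0.30 and 0.60 in ileum. Relative to the summed pan-leukocyte reads it was 1.45% ± 0.517 in the graft, and 5.09% ± 1.21 in colon and 2.19% ± 1.79 in ileum at day 12. B cells also carry this receptor, and summed reads of 6 B cell markers were 230.2 to 261.5 in the graft, 17.1 to 60.8 in colon and 32.0 to 1031 in ileum.

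Fcer1g is the γ chain that the activating receptors need at the surface, and it had 5412, 5615 and 5045 normalized reads in the graft. The colon held 197, 462 and 281 at day 4, 716, 219 and 173 at day 8, and 405, 641, 309 and 363 at day 12. The ileum held 1014, 519, 1189 and 1348 at day 4, 2077, 2366, 1449 and 523 at day 8, and 3813, 977, 1118 and 1746 at day 12. Every engrafted library was below every graft library, and colon was lower than the graft by -3.73 ± 0.60, -3.64 ± 0.60 and -3.30 ± 0.53 (adjusted p = 1.3e-05, 1.7e-05 and 9.9e-06). In ileum it was lower at day 4 (-1.96 ± 0.51, adjusted p = 0.0021) and day 8 (-1.26 ± 0.50, adjusted p = 0.037), and at day 12 the value was -0.96 ± 0.50 (adjusted p = 0.11). The day 8 call was lost without any 1 of 5 libraries, the 3 of the graft and ileum replicates 3 and 4, with values of -1.30, -1.25, -1.29, -1.22 and -1.01. At day 12 the γ chain passed the test once ileum replicate 1 was left out (-1.58, adjusted p = 0.0090). Per pan-leukocyte read Fcer1g was higher than in the graft in colon at day 12 (1.24 ± 0.54, adjusted p = 0.030) and not called elsewhere (0.52 to 0.82).

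Fcgrt, the heavy chain of FcRn, did not pass the test per library between graft and colon. It had 409.8, 453 and 603 normalized reads in the graft, 332, 374 and 466 in colon at day 4, 658, 485 and 364 at day 8 and 492, 445, 317 and 491 at day 12. The ileum had 439, 401, 1309 and 314 at day 4, 632, 879.9, 452 and 404 at day 8, and 652, 529.9, 684 and 912 at day 12. Of the 10 colon libraries 4 lay below the lowest graft library and 1 above the highest. The differences from the graft in colon were smaller than their standard errors (0.0076 ± 0.41, 0.27 ± 0.41 and 0.17 ± 0.39, with 95% intervals of -0.84 to 0.86 at day 4 and -0.62 to 0.97 at day 12). In ileum Fcgrt was higher at day 12 (1.00 ± 0.39, adjusted p = 0.034), a call lost without graft replicate 1 (0.82), graft replicate 2 (0.92) or ileum replicate 4 (0.77). Per pan-leukocyte read it was higher in all groups, by 4.73 to 4.88 in colon and 2.97 to 3.45 in ileum. Endothelium bears FcRn as well, and summed reads of 6 endothelial markers were 75.8 to 116 in the graft, where Cdh5, Kdr, Emcn, Tek and Esam were at 0, 215 to 871 in colon and 181.5 to 4237 in ileum. The part of these cells in the Fcgrt level was not tested.

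**Figure D2:**
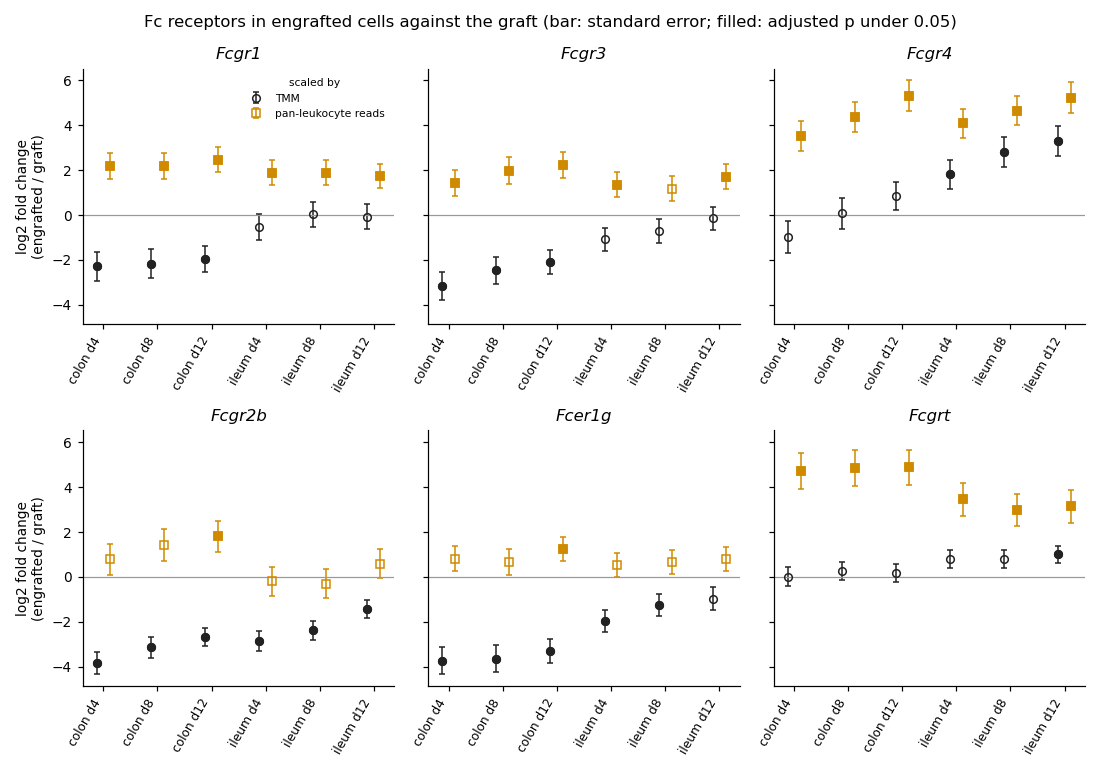
Log2 fold change of each receptor gene in engrafted macrophages against the graft, by segment and day (bars: standard error), with black circles for TMM scaling and orange squares for scaling to pan-leukocyte reads, filled where the adjusted p was under 0.05. Fcgr1, Fcgr3, Fcgr2b and Fcer1g in colon lie below 0 under the first scaling and above 0 under the second, whereas Fcgr4 in ileum lies above 0 under both.

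The second question was whether receptor expression went on changing after day 4. None of the 6 genes passed edgeR's test between days 4 and 8 or days 8 and 12 in either segment, and DESeq2 called 0 of them as well. In colon the differences from day 4 to day 8 ranged from 0.091 to 1.06 and those from day 8 to day 12 from -0.10 to 0.77, with 0% of the 11842 genes called in either step. In ileum they ranged from -0.00033 to 0.99 and from -0.10 to 0.94, and 5.13% of genes were called from day 4 to day 8 (0% from day 8 to day 12). At an unadjusted p under 0.05, 0 members passed in colon and 1 in ileum, between day 8 and day 12, namely Fcgr2b (0.94 ± 0.40, adjusted p = 0.74), where 1.72% and 2.78% of all genes passed in the colon steps and 21.8% and 6.72% in those of the ileum. Per pan-leukocyte read no member passed the adjusted threshold either, with differences of -0.15 to 0.85 and 0.044 to 0.95 in colon and -0.48 to 0.57 and -0.14 to 0.89 in ileum (0%, 0%, 0.0169% and 0% of all genes higher and 0%, 0%, 2.43% and 0% lower). The changes from day 4 to day 12 did not differ between the segments by an interaction term for any member (-0.57 to 0.36, lowest adjusted p = 0.96, with 0% of all genes called). Standard errors of the time steps were 0.36 to 0.72, which sets the size of a step that these libraries could show. The Fcgr4 means were 45.1 ± 24.9, 104 ± 82.3 and 165 ± 91.1 normalized reads in colon and 294 ± 171, 561 ± 318 and 766 ± 279 in ileum at days 4, 8 and 12 (SD).

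**Figure D3:**
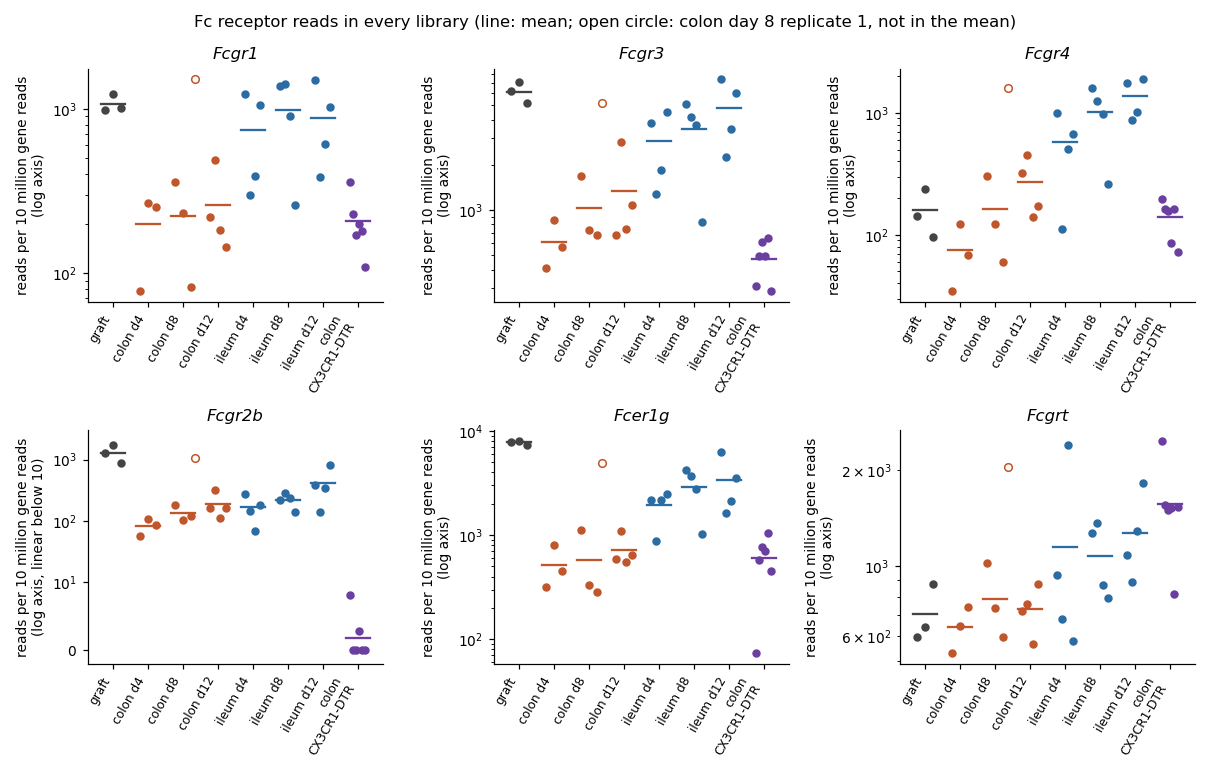
Reads per 10000000 reads on genes (log axis) of the 6 receptor genes in every library, with the group mean as a line and colon day 8 replicate 1 as an open circle. By group mean the graft is highest in Fcgr3, Fcgr2b and Fcer1g and the ileum in Fcgr4. Single libraries overlap, and for Fcgr3 ileum day 12 replicate 1 (7430) lies above every graft library (highest 7103). Fcgr2b is at or near 0 in the CX3CR1-DTR colon.

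The third question was how colon and ileum differed on the same day, in cells for which the labels give the same gate. Per library the colon was lower for 2 members at day 4 (Fcgr3 and Fcgr4), 4 at day 8 (those and Fcgr1 and Fcer1g) and 5 at day 12 (those and Fcgr2b), and per pan-leukocyte read none of these was lower, where 76.9%, 78.3% and 84.4% of all genes were higher in colon and 0.101%, 0.92% and 0.92% lower. Genes lower in colon made up 2.66%, 18.3% and 17.2% of all those tested at the 3 days, genes higher in colon 0.524%, 16.7% and 15.3%, and those called in either direction 3.18%, 35% and 32.5%. The differences at day 12 were -2.45 ± 0.57 for Fcgr4 (adjusted p = 0.0025), -2.34 ± 0.49 for Fcer1g (adjusted p = 0.0014), -1.94 ± 0.51 for Fcgr3 (adjusted p = 0.0062), -1.90 ± 0.55 for Fcgr1 (adjusted p = 0.011) and -1.24 ± 0.40 for Fcgr2b (adjusted p = 0.020), and Fcgrt stood at -0.83 ± 0.36 (adjusted p = 0.079). At day 12 the groups did not overlap for Fcgr4, Fcer1g and Fcgrt, and 1 colon library of Fcgr3, replicate 2, lay above the lowest ileum library. The share of all genes without overlap was not counted, so this does not set the members apart. The Fcgr1 call was lost without ileum day 12 replicate 1 (-1.40, adjusted p = 0.061), and that of Fcgr2b without colon replicate 1 (-1.16), colon replicate 3 (-1.06) or ileum replicate 4 (-0.71). Within the 3 transfer experiments the day 12 log2 ratio of mean normalized reads in colon to ileum was -1.25, -2.23 and -3.28 for Fcgr4. It was -1.27, -2.37 and -2.27 for Fcer1g. For Fcgr2b it was 0.42, -0.72 and -2.14, so that its lower level in colon did not hold in experiment 1.

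At day 8 the differences were -2.74 ± 0.66 for Fcgr4, -2.38 ± 0.55 for Fcer1g, -2.21 ± 0.62 for Fcgr1 and -1.75 ± 0.57 for Fcgr3 (adjusted p = 0.0032, 0.0026, 0.0089 and 0.019). Fcgr1 lost its call without colon day 8 replicate 4 (-1.77), and Fcgr3 without that library (-1.52) or replicate 3 (-1.57). Colon day 8 replicate 1, which the test left out, held 906 normalized reads of Fcgr1, 3060 of Fcgr3, 960 of Fcgr4, 637 of Fcgr2b, 2905 of Fcer1g and 1221 of Fcgrt, above the other 3 colon libraries of that day in each gene. It also held 15453 pan-leukocyte, 91436 macrophage and 65764 epithelial marker reads. With it in the fit, 0 of the 6 members differed between colon and ileum at day 8 and 2 in place of 4 were lower in colon than in the graft. The share of all genes called in that fit is not given here, so these counts do not set the members apart. At day 4 the calls of Fcgr3 (-2.07 ± 0.58, adjusted p = 0.049) and Fcgr4 (-2.81 ± 0.70, adjusted p = 0.039) were each lost without any 1 of 5 libraries, the 3 of colon and ileum replicates 1 and 4, with values of -2.42 to -1.81 and -3.34 to -2.41. With the transfer experiment as a replicate block 5 members were lower in colon at day 4, and the share of all genes in that fit is not given here either. Ileum day 4 replicates 2 and 3, from experiment 1, held 127432 and 119763 epithelial marker reads against 27902 and 36446 in the other two.

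Per pan-leukocyte read, the edgeR calls between segments fell on other members. Fcgrt was higher in colon at day 8 (1.86 ± 0.65, adjusted p = 0.010) and day 12 (1.74 ± 0.61, adjusted p = 0.0093), and Fcgr2b at day 8 (1.73 ± 0.66, adjusted p = 0.018). At days 8 and 12, 78.3% and 84.4% of all genes were higher in colon as well. These values of Fcgrt and Fcgr2b lay below the medians of all genes given below, so the calls do not set them apart. The 4 members of the activating system stood between -0.57 and 0.80 at all days and none passed the test. Relative to the summed pan-leukocyte reads Fcgrt was 22.7% ± 10.5 in colon and 6.78% ± 3.65 in ileum at day 12, and Fcgr4 was 7.19% ± 2.82 and 6.76% ± 2.97. This scaling put the median of all genes at 1.96 to 2.56 in colon against ileum and at 2.32 to 4.97 against the graft, so that most genes were higher under it, and Fcgr4 in the day 12 ileum (5.23) lay above that median where Fcgr2b (0.60) and Fcer1g (0.79) lay below it.

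**Figure D4:**
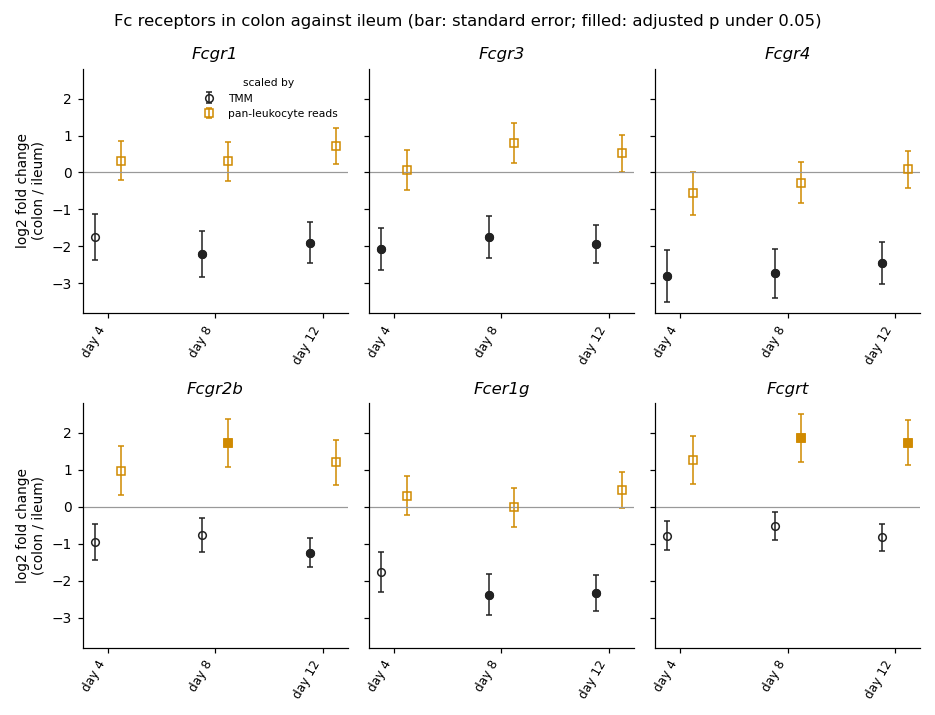
Log2 fold change of colon against ileum at days 4, 8 and 12 for each receptor gene (bars: standard error), with black circles for TMM scaling and orange squares for scaling to pan-leukocyte reads, filled where the adjusted p was under 0.05. Under the first scaling all points are below 0, and under the second the activating receptors and the γ chain lie near 0 while Fcgrt is above it.

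The CX3CR1-DTR hosts gave a second colon series, compared with the graft and with the CD11c-DTR colon of day 12 per 10000000 reads on genes. The libraries were counted in another table, harvested at another day and raised in another host. Their titles, unlike those of the other libraries, say gfp only, so the sort may have differed as well. Table, day, host and any difference in the sort cannot be told apart. Fcgr2b was at the floor in all 6 libraries and passed the filter through the other groups alone, so no test of it is given. Of the other 5 members Fcgr1, Fcgr3 and Fcer1g were lower than in the graft per library and Fcgrt was higher, while Fcgr4 did not pass the test. Of all genes, 36% were lower and 39.5% higher (75.5% called). Per pan-leukocyte read all 5 were higher, as were 85.4% of all genes (2.67% lower, median 4.90), with Fcgr1 at 2.54, Fcgr3 at 1.35, Fcer1g at 1.47, Fcgr4 at 4.71 and Fcgrt at 6.16. Fcgr3 fell from 6209.5, 7103 and 5123 in the graft to 287 to 647 in the 6 libraries (median 492; -3.40 ± 0.40, adjusted p = 2.3e-06). Fcgr1 was -2.11 ± 0.35 and Fcer1g -3.37 ± 0.46 (adjusted p = 8.0e-05 and 1.1e-05). Fcgr4 was at 72.8 to 196 against 95.1 to 239 in the graft (0.053 ± 0.42, adjusted p = 0.91). Fcgrt was at 813 to 2476 against 596 to 877 in the graft (1.44 ± 0.29, adjusted p = 0.00041), higher than the graft mean in 6 of 6 libraries. In replicate 1, which had the most pan-leukocyte reads of the 6 libraries (5826), Fcer1g was lowest at 73.5 against 455 to 1048 in the others, and Fcgrt was highest.

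Against the CD11c-DTR colon of day 12, Fcgr3 (-1.50 ± 0.37, adjusted p = 0.0027) and Fcgr4 (-0.97 ± 0.38, adjusted p = 0.037) were lower in the CX3CR1-DTR colon and Fcgrt was higher (1.08 ± 0.26, adjusted p = 0.0021), and 60.7% of all genes were called (35.4% lower and 25.2% higher). Per pan-leukocyte read Fcgrt remained higher (1.28, adjusted p = 0.025), and Fcgr3 (-0.88) and Fcgr4 (-0.61) no longer passed, with 14% of all genes higher and 27% lower. Fcgr4 also lost its call without colon day 12 replicate 1 (-0.90) or 2 (-0.63) or CX3CR1-DTR replicate 4 (-0.86) or 6 (-0.79). Fcgr1 (-0.33 ± 0.34, 95% interval -1.07 to 0.41) and Fcer1g (-0.25 ± 0.43, -1.17 to 0.67) did not pass.

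Fcgr2b was nearly without reads in the CX3CR1-DTR colon. It had 1 read in each of 2 libraries and 0 in the other 4, so 2 reads of 14894348, against 226 of 13417683 in the CD11c-DTR colon of day 12 and 1195 of 8927107 in the graft. The ratio of the CD11c-DTR colon to it was 125 (95% exact interval of the counts 34.3 to 1042), and that of the graft 997 (275 to 8241); these intervals cover counting error only. Both tables list the same Fcgr2b transcript at the same coordinates. Of 7700 genes with at least as many reads as Fcgr2b in the CD11c-DTR colon of day 12, 30 had at most 2 reads in the CX3CR1-DTR libraries, among them Kpna2 (479 against 2), Rbm3 (1618 against 1), Orc4 (255 against 1) and Vps50 (270.0 against 1), genes of general cell functions that were singled out after their values were seen. B2m, the light chain of FcRn, was also lower there (-4.39 ± 0.53 against the CD11c-DTR colon, and -4.01 ± 0.54 per pan-leukocyte read). Whether the low Fcgr2b count lies in the cells or in the counting was not tested.

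The chains that work with the receptors were described from lists of named genes. B2m was higher in the day 12 ileum than in the graft (1.46 ± 0.42, adjusted p = 0.0051) and stood at -0.51 ± 0.40 in colon (adjusted p = 0.28). Tyrobp, the other ITAM adaptor of myeloid cells, was lower in both, by -4.21 ± 0.62 in colon and -1.62 ± 0.57 in ileum (adjusted p = 3.2e-06 and 0.019). Per pan-leukocyte read B2m was higher in both (4.00 and 3.34), and Tyrobp stood at 0.16 and 0.042 and was not called.

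Genes of the activating ITAM pathway were 15 kinases, adaptors and effectors such as Syk, Lyn and Btk. At day 12, 15 of 15 in colon and 12 of 15 in ileum were lower per library than in the graft, against 24.9% and 20% of all genes. Their medians were -3.59 and -1.58 beside 0.24 and 0.22 over all genes. Per pan-leukocyte read none of the 15 was lower and 6 and 1 were higher, against 96.2% and 76.2% of all genes. Rac2, the GTPase of the phagocyte oxidase (-4.80 and -2.30), Fgr, a Src family kinase (-4.75 and -2.42), and Plcg2, the phospholipase that raises calcium (-4.36 and -2.35), fell furthest in colon and ileum. Of 14 genes of inhibitory signalling, 11 were lower and 2 higher in colon and 7 lower and 2 higher in ileum, with medians of -2.27 and -0.85. Beside them 24.9% and 20% of all genes were lower and 37.7% and 35.9% higher. Per pan-leukocyte read 10 and 5 of the 14 were higher and none lower, against 96.2% and 76.2% of all genes higher. The inhibitory receptor gene Pirb (-4.79 and -2.09) and the adaptor gene Dok3 (-4.39 and -1.95) were lower in both segments. Cd22, an ITIM receptor best known from B cells, was higher (2.10 and 4.42), and so was Inppl1, which encodes the phosphatase SHIP-2 (0.71 and 0.67). Between the segments at day 12, 13 of the 15 activating and 10 of the 14 inhibitory genes were lower in colon, against 17.2% of all genes. Lcp2, the adaptor SLP-76, was lower by -2.83 and Pirb by -2.69. Per pan-leukocyte read none of the listed genes was lower in colon, and 5 of the activating and 6 of the inhibitory genes were higher, against 84.4% of all genes.

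Of 6 genes for other receptors of the γ chain 3 could be tested. Clec4n, which encodes Dectin-2, was higher than in the graft in both segments at day 12 (3.77 ± 0.71 in colon and 5.20 ± 0.75 in ileum, adjusted p = 7.8e-05 and 3.4e-06). Clec4e, which encodes Mincle, was lower in colon (-3.96, adjusted p = 1.0e-05) and stood at -0.85 in ileum (adjusted p = 0.19), and Clec4d was at -1.15 in colon (adjusted p = 0.040) and 0.37 in ileum (adjusted p = 0.53). All 3 were lower in colon than in ileum per library at day 12 (-1.43 to -3.11), against 17.2% of all genes. Per pan-leukocyte read Clec4n remained higher than in the graft (8.13 and 6.92), Clec4d was higher in both segments (3.48 and 2.17, adjusted p = 0.00012 and 0.011), so that its direction in colon turned, and Clec4e did not pass (0.47 and 0.74).

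Of 12 other listed genes, which were immunoglobulin binders, receptor chains and Fc receptor-like genes, 6 could be tested. Pigr, the epithelial receptor that carries IgA across the gut wall, was higher than in the graft by 12.83 in colon and 11.75 in ileum, and Fcgbp, a mucus protein of goblet cells, by 11.60 and 10.58, values that moved with the epithelial marker reads given above. Fcrls was higher in both (4.77 and 4.63). Trim21, the cytosolic Fc receptor, was lower (-1.88 and -0.80, adjusted p = 3.7e-05 and 0.040) and did not keep that direction per pan-leukocyte read (2.70 and 1.27). Fcrla, a B cell gene, was lower in colon (-5.24) and higher in ileum (2.16), and Fcrl1, another, was lower in colon (-3.59) and stood at 0.18 in ileum. Per pan-leukocyte read neither passed in colon (-3.39 and 0.95), both were higher in ileum (4.21 and 2.32), and Pigr (16.98 and 13.57), Fcgbp (15.23 and 11.93) and Fcrls (9.15 and 6.45) remained higher. Genes for the high affinity IgE receptor (Fcer1a, Ms4a2) were too low to test.

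Likeness to other genes was measured over the 25 libraries as the root mean square difference of log2(normalized reads + 50) after centring each gene, given as a description. The libraries share depth and leukocyte content, so likeness also follows these. Fcgr1 was most like C130050O18Rik (0.24), Rgs10 (0.31) and Arrb2 (0.33), where its own spread was 1.02. Fcgr3 was most like Fam105a (0.28), Ly86 (0.31) and Fyb (0.35), and the genes most like Fcer1g included Vsir (0.33) and Tlr13 (0.35). Fcgr2b was most like Tlr8 (0.37), Parp8 (0.38) and Cmpk2 (0.39), and Fcgr4 most like Lair1 (0.41), Tmem86a (0.44) and Cd22 (0.45). Fcgrt, whose own spread was 0.45, was most like Adam33 (0.27), Rad54l2 (0.31) and Atp9b (0.31). Among the members the closest pairs were Fcgr1 with Fcgr3 (0.42) and Fcgr3 with Fcer1g (0.45), and the most distant was Fcgr2b with Fcgr4 (1.39).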

How the data were processed

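MARS-seq libraries were sequenced and deposited by the authors as 2 tables of raw counts per gene. Per the labels and the study's methods, the authors mapped unique reads to mm9 with HISAT 0.1.6 and counted them on the sense strand of RefSeq exons with HOMER (version not given in the sources used here). The table with the CX3CR1-DTR samples held 52 further columns that carry no label of a sample given here, and these were not used. Symbols were the text before the first bar of the annotation column, and rows without a symbol numbered 0. The members and gene lists were chosen with earlier results of these data known.

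Counts were scaled per 10000000 mapped reads (from the table header) for the CD11c-DTR samples and per 10000000 reads on genes wherever CX3CR1-DTR samples entered. A gene was kept if it reached 50 normalized reads in 3 or more libraries (11842 of 24411, and 11718 of the 24148 symbols in both tables), and all 6 members passed. Fcgr2b passed in the second fit through the graft and the CD11c-DTR colon alone, and was left out of its counts of calls. Counts were tested with edgeR 4.0.16 (TMM, glmQLFit and glmQLFTest, R 4.3.3) in a fit of 7 groups and 25 libraries and a second of 3 groups and 13 libraries. Depth was 591817 to 5228664 reads on genes. The floor is 3 reads, and calls are an adjusted p under 0.05. The filter, tests and calls were also run on simulated counts in which few genes changed, equally up and down, with the same dispersion for every gene. Against the graft most genes were called here, so that run cannot show how TMM or the error rate behaves in these comparisons. All 48 pairs of libraries of a group differed beyond sampling noise (chi-square of their counts divided by its degrees of freedom at least 4.72), so none was a copy of another. Separate preparations of the same animal could pass this check too. Each library was counted as its own sample. Colon day 8 replicate 1 was left out, since it is not among the 3 colon day 8 libraries of the study's matching profiles, whose values match the deposited counts in at least 99.8% of genes. The libraries were grouped by the labels' dates into 3 transfer experiments, which the labels do not name (1 date was read as a slip of the year). Whether they pair libraries was checked by the correlation of deviations from the group means, which had a median of 0.020 (-0.48 to 0.52) within an experiment and -0.0089 between experiments, so the block was kept as an alternative. Named genes were the 6 members, both partner chains and, per list, up to 3 with the largest rise and 3 with the largest fall past the threshold in the day 12 comparisons, and for each member the 3 genes most like it, of which 1 is not reported here. Alternatives were DESeq2 1.42.0 and its size factors, library totals, no filter, an equal-variance test, the compared groups alone, all 26 libraries, ileum day 4 of experiment 2 alone, the experiment block, a 2-fold threshold, and, chosen after seeing the data, scaling to the summed pan-leukocyte counts.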

Additional observations from a re-analysis of the deposited data

Results flagged for a closer look

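In groups of 4 to 10 libraries the library farthest from its group was compared with Dixon's critical value, which chance passes in about 1 in 20 groups. Of 30 groups tested, 3 passed. Fcgr3 had 1666 normalized reads in colon day 12 replicate 2, against 422 to 604 in the other 3, and that library also held the most pan-leukocyte reads of its group (5122). Fcgrt had 1309 normalized reads in ileum day 4 replicate 3, against 314 to 439 in the other 3. Fcgr2b had 8.17 reads per 10000000 reads on genes, a single read, in CX3CR1-DTR colon replicate 1.

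Colon day 8 replicate 1, which entered the alternative with all 26 libraries alone, lay above every graft library for 3 members. It held 906 normalized reads of Fcgr1 (highest graft library 866), 960 of Fcgr4 (highest graft library 169) and 1221 of Fcgrt (highest graft library 603). The cause was not tested.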

How the results depend on the processing

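Scaling to pan-leukocyte reads, chosen after seeing the data, changed the results most, and what it keeps constant is the summed leukocyte count, so that a gene that fell less than this sum comes out higher. It gave 4, 4 and 6 members higher and 0 lower than the graft in colon at days 4, 8 and 12 (0 higher and 4 lower on each day without it), and 4, 3 and 4 higher and 0 lower in ileum, where of all genes 95.7%, 95% and 96.2% were higher in these colon comparisons and 88.2%, 78.3% and 76.2% in those of the ileum. Colon against ileum gave 0 calls at day 4, 2 at day 8 and 1 at day 12, all higher and 0 lower, against 76.9%, 78.3% and 84.4% of all genes. With Fcgr2b left out of the CX3CR1-DTR counts, the graft to that colon gave 5 higher and 0 lower of 5 (85.4% of all genes higher), and the colon series 1 call with 0 lower. The log2 values that changed sign were, from the graft to colon at day 4, Fcgr1 2.19, Fcgr2b 0.78, Fcgr3 1.42, Fcgr4 3.52 and Fcer1g 0.82, at day 8 Fcgr1 2.19, Fcgr2b 1.43, Fcgr3 1.97 and Fcer1g 0.67, and at day 12 Fcgr1 2.46, Fcgr2b 1.81, Fcgr3 2.23 and Fcer1g 1.24. From the graft to ileum they were Fcgr1 1.88, Fcgr3 1.35 and Fcer1g 0.52 at day 4, Fcgr3 1.17 and Fcer1g 0.68 at day 8, and Fcgr1 1.74, Fcgr2b 0.60, Fcgr3 1.71 and Fcer1g 0.79 at day 12. For colon against ileum they were Fcgr1 0.32, Fcgr2b 0.98, Fcgr3 0.072, Fcer1g 0.30 and Fcgrt 1.27 at day 4, Fcgr1 0.31, Fcgr2b 1.73, Fcgr3 0.80 and Fcgrt 1.86 at day 8, and Fcgr1 0.72, Fcgr2b 1.21, Fcgr3 0.52, Fcgr4 0.088, Fcer1g 0.45 and Fcgrt 1.74 at day 12. From the graft to the CX3CR1-DTR colon they were Fcgr1 2.54, Fcgr3 1.35 and Fcer1g 1.47, and between the colon series Fcgr1 0.074 and Fcer1g 0.23.

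Other settings moved values near 0 or calls near the threshold, and where nothing is said the cause was not tested. Shares of all genes called under these settings are not given here, so the counts of members do not set them apart from other genes. Library totals gave Fcgrt -0.32 and -0.16 in colon at days 4 and 12, Fcgr4 -0.16 in colon at day 8, Fcgr1 -0.44 in ileum at day 8, Fcgr4 -0.22 in the CX3CR1-DTR colon, 0 members higher in ileum at day 4, 1 higher and 2 lower at day 12, and 0 calls for colon against ileum at day 4. The equal-variance test, which does not share variance among genes, gave Fcgrt -0.29 and -0.15 in colon at days 4 and 12, Fcgr4 -0.14 in colon at day 8 and -0.13 in the CX3CR1-DTR colon, Fcgr1 -0.64 in ileum at day 8, 0 members higher in ileum at days 4 and 8, 1 higher and 2 lower at day 12, and 0, 0 and 2 calls for colon against ileum. All 26 libraries gave 2 calls from the graft to colon at day 8, 0 higher in ileum at day 4, 1 lower at day 8, 1 call at day 12 (1 higher and 0 lower), and 0 calls for colon against ileum at days 4 and 8, with Fcgr2b 0.78 and Fcgrt 0.11 at day 8. The experiment as a replicate block gave 5 calls for colon against ileum at day 4, Fcgr4 -0.12 in colon at day 8 and Fcgr1 -0.29 in ileum at day 8, and it changed no other count by over 1.5 times. No paired analysis was possible for the CX3CR1-DTR comparisons because their libraries share no experiment with the others. Between the colon series the 2-fold threshold left 0 of the 5 members, 0 higher and 0 lower, and the equal-variance test gave 1 lower. DESeq2 gave 4 calls for colon against ileum at day 4 and Fcgr4 -0.00039 in the CX3CR1-DTR colon, and its size factors gave 1 call and -0.014. The compared groups alone gave 2 members higher in ileum at day 8 and 0 calls for colon against ileum at day 4. Ileum day 4 of experiment 2 alone gave Fcgr1 0.010 against the graft at day 4, 4 calls for colon against ileum at day 4 and 2 members higher in ileum at day 8. Without the filter Fcgrt was -0.019 in colon at day 4 and Fcgr1 -0.024 in ileum at day 8.

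Leaving out each library in turn gave 0 to 4 calls for colon against ileum at day 4 and 2 to 4 at day 8, and 1 to 2 members lower between the colon series. From the graft to ileum it gave 0 to 2 members higher at day 4, 1 to 2 lower at day 8, and 1 to 2 higher and 1 to 2 lower at day 12. Signs changed for Fcgrt in colon (-0.18 to 0.20 at day 4 and -0.020 to 0.37 at day 12), Fcgr4 in colon at day 8 (-0.71 to 0.52) and in the CX3CR1-DTR colon (-0.25 to 0.48), Fcgr1 in ileum (-0.24 to 0.32 at day 8 and -0.57 to 0.18 at day 12), Fcgr3 in ileum at day 12 (-0.55 to 0.091), and Fcgr1 (-0.54 to 0.14) and Fcer1g (-0.48 to 0.022) between the colon series. Groups of 3 or 4 libraries limit all of these. Shares of all genes called in these fits are not given here.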
